A study of Mus musculus with 19 samples.

Results

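The genes described here are 10 markers of macrophages, the tissue-resident phagocytes, read out in mouse livers and mouse tumours that model fibrolamellar carcinoma. They were taken by name: 7 mark macrophages in general (C1qa, C1qb, Csf1r, Adgre1, Cd68, Mrc1 and Lyz2) and 3 mark Kupffer cells, the macrophages of the liver sinusoids (Vsig4, Cd5l and Marco). All 10 were found among the 13549 genes of the embryo table and among the 17606 gene IDs of the tumour tables.

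RNA was sequenced from whole livers of mouse embryos at embryonic day 18.5 and from tumours grown under the skin from FL8, 1 mouse cell line. Fusion embryos carried the DNAJB1-PRKACA fusion, tagged with GFP and silenced by a stop cassette, at Rosa26 (Rosa26 LSL-DNAJB1-PKA-GFP) and Alb-Cre, in which the albumin promoter drives Cre recombinase from mid-gestation. The 5 control and 4 fusion embryos keep the numbers of their labels (control 1 to 5, fusion 6 to 9), and the genotype of the controls is given in the labels only as control. The albumin promoter is active in the hepatocyte lineage, and macrophages are not among the cells this driver targets.

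For the tumours, FL8 cells in crosslinked gelatin capsules were implanted in the flanks of NSG mice, which lack mature T, B and NK cells but keep macrophages with impaired function. Mice were randomized at a mean tumour size of 75 mm3 to the methylcellulose carrier (vehicle, 5 tumours) or to palbociclib, an inhibitor of the cell cycle kinases CDK4 and CDK6 (5 tumours). Palbociclib was given by mouth at 75 mg/kg for 3 days, followed by 4 days without treatment. The series text speaks of a saline buffer as the control, and the labels were followed. Host and tumour cells are both mouse, so the RNA of the host's macrophages cannot be told apart from that of FL8 cells. The labels do not say whether each tumour came from its own mouse, so p-values measure only the spread between these samples.

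Macrophages depend on CSF1 or IL-34 acting through the receptor CSF1R, and on the transcription factor PU.1 (Spi1). Kupffer cells are seeded before birth from fetal precursors, clear particles and old red cells from portal blood through scavenger and complement receptors, and lose their identity genes when taken out of the liver. In the fetal liver, a blood-forming organ, macrophages also sit at the centre of islands of maturing red cells. In bulk tissue, fewer macrophages and less RNA per macrophage cannot be told apart, nor can RNA of these genes from other cells. This holds for every value below.

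Library depth ranged from 7.66 M to 45.6 M counts for the livers and 2.96 M to 43.1 M reads for the tumours, the lowest being vehicle 5. As a check of the labels, Prkaca, the kinase gene contained in the fusion, had 36.4 to 50.0 CPM (counts per M counts) in control livers and 52.5 to 114 CPM in fusion livers (log2 fold change 0.78 ± 0.22, SE; edgeR adjusted p = 0.0379). Summed over 10 hepatocyte genes, the level was 167285 to 223387 CPM in the embryo livers and 83716 to 126817 CPM in the tumours other than vehicle 1. The embryo libraries formed 2 sets by the share of counts on ribosomal protein genes: 9.44% to 9.85% in control 1 and 2 and fusion 8 and 9, and 6.02% to 7.66% in the other 5. This split is called the library batch here, although the labels name no batch. In vehicle 1, mitochondrial genes took 46.6% of the reads, against 1.24% to 6.47% in the other 9 tumours, and tumour results are therefore given with and without it.

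In the mouse genome (mm10, GENCODE M21) the C1q genes lie side by side on chromosome 4, C1qb at chr4:136880129-136886187 and C1qa at chr4:136895917-136898803. Of the other general genes, Cd68 lies at chr11:69664213-69666153, Adgre1 at chr17:57358691-57483527, Mrc1 at chr2:14229392-14332057 and Lyz2 at chr10:117277331-117282321. The Kupffer genes are Vsig4 at chrX:96247203-96293438, Cd5l at chr3:87357881-87371073 and Marco at chr1:120474538-120505024.

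The region just before the transcription start is shown for the 3 Kupffer genes and for C1qb, because both kinds of gene were expressed in the fetal liver, whereas only C1qb was well above 0 in the tumours. Each is the 250 bases before the start of the RefSeq transcript (build GRCm38.p6), 5′ to 3′ on the strand of the gene. Capitals mark GAGGAA, the core of PU.1 sites, and TGCTGA, part of the site bound by MAF factors, each searched on both strands (TTCCTC and TCAGCA are the reverse forms).
Cd5l, chr3:87357631-87357880, + strand: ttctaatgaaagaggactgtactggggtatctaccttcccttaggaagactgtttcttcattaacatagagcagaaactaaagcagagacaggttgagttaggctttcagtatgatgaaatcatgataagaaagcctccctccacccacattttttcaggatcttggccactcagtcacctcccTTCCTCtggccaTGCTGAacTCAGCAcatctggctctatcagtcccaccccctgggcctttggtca
Marco, chr1:120505025-120505274, − strand: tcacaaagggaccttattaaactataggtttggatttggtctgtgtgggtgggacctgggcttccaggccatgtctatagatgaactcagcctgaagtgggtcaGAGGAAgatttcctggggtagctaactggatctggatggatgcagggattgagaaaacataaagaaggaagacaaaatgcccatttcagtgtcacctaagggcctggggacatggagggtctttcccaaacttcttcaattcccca
Vsig4, chrX:96293439-96293688, − strand: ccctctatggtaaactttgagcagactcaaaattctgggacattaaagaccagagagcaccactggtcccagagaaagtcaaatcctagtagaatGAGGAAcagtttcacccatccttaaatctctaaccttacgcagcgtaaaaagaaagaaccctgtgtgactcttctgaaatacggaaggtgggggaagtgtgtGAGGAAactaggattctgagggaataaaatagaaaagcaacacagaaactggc
C1qb, chr4:136886201-136886450, − strand: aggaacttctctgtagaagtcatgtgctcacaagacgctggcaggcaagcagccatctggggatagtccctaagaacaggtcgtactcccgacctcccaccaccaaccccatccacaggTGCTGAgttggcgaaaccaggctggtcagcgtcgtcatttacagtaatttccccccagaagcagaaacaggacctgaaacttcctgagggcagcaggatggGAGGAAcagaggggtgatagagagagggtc

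Of the 10 members, 7 were matched to a region used here, those of C1qb, Cd68, Mrc1, Lyz2, Vsig4, Cd5l and Marco. GAGGAA occurred in 6 of the 7, all but Lyz2, and in 23.3% of all 32851 regions of the same length. TGCTGA occurred in 3 of the 7 (C1qb, Lyz2 and Cd5l) and in 16.1% of all regions. In Cd5l the pair of TGCTGA matches lay 54 and 46 bases before the start and the GAGGAA match 66 bases before it. These are matches of letters only, and the Kupffer genes shared them with general macrophage genes.

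In the fetal liver all 10 genes were expressed. Levels between genes were compared as CPM per kb of exon. C1qa and C1qb, chains of the complement protein C1q, and Lyz2, which encodes lysozyme, were the highest in controls at 265 ± 82.8 (SD, n = 5), 162 ± 13.2 (SD, n = 5) and 224 ± 36.8 CPM per kb (SD, n = 5). The ranges of C1qa, Lyz2 and C1qb overlapped between neighbours in this order. The Kupffer genes Marco, a scavenger receptor for bacteria and particles, and Cd5l, a secreted scavenger receptor protein, came next at 99.8 ± 17.8 (SD, n = 5) and 86.9 ± 17.8 CPM per kb (SD, n = 5), below every control value of C1qb.

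Below Cd5l, with a gap between the ranges, came Csf1r at 17.9 ± 2.90 CPM per kb (SD, n = 5), then Cd68, which encodes a lysosomal membrane protein, and Mrc1, the mannose receptor. Their ranges overlapped from neighbour to neighbour. Adgre1, which encodes the F4/80 antigen, was at 7.10 ± 1.64 CPM per kb (SD, n = 5), below every value of Mrc1. Vsig4, a complement receptor of Kupffer cells, was lowest at 5.28 ± 1.40 CPM per kb (SD, n = 5), with a range that overlapped that of Adgre1. The order was the same in the 4 fusion livers. Reads of Lyz2 are uncertain because Lyz1 is a near-identical neighbour. Those of Csf1r are uncertain because it overlaps Hmgxb3 on the other strand and the strand setting of the counting is not given in the sources used here.

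The first comparison asks whether these genes differ when the fusion is expressed in fetal hepatocytes. None of the 10 passed the threshold (edgeR adjusted p under 0.05), while 12.8% of 13316 genes tested did, 5.98% higher and 6.81% lower in fusion livers. At an unadjusted p under 0.05 there was 1 member, C1qb, against 29.3% of all genes. The values were lower in fusion livers for 7 of the 10, with a median log2 fold change of -0.23 over the members and of -0.01 over all genes tested. Over the 9 livers the coefficient of variation ran from 15.4% (C1qb) to 30.0% (C1qa). For no member were the groups free of overlap, against 16.9% of all genes.

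C1qb had the smallest p-value. It was at 174, 171, 197, 182 and 158 CPM in control 1 to 5 and at 131, 141, 121 and 164 CPM in fusion 6 to 9. Fusion 9 lay within the control range, and the other 3 fusion livers lay below every control. Its log2 fold change, -0.36 ± 0.13 (SE), did not pass (edgeR adjusted p = 0.0847).

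C1qa was at 347, 384, 246, 190 and 208 CPM in control 1 to 5 and at 156, 196, 257 and 274 CPM in fusion 6 to 9. Its spread followed the library batch more than the genotype: the 4 libraries of high ribosomal share were the highest. Its log2 fold change, -0.34 ± 0.25 (SE), had an edgeR adjusted p of 0.388. C1qc, the third chain of C1q, averaged 214 ± 33.3 CPM over the 5 controls and 183 ± 25.2 CPM over the 4 fusion livers (both SD), a log2 fold change of -0.24 ± 0.15 (SE) with an edgeR adjusted p of 0.316.

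Csf1r, the receptor on which macrophages depend, was at 80.7, 67.8, 104, 86.7 and 97.5 CPM in control 1 to 5 and at 91.1, 90.5, 57.0 and 67.4 CPM in fusion 6 to 9 (log2 fold change -0.21 ± 0.17, SE; edgeR adjusted p = 0.458). Within each genotype the libraries of low ribosomal share were the higher ones. Its ligand gene Csf1 averaged 10.1 ± 1.94 CPM over the 5 controls and 7.73 ± 1.06 CPM over the 4 fusion livers (both SD; log2 fold change -0.41 ± 0.17, SE; edgeR adjusted p = 0.131). Il34, which encodes the other ligand, was not among the 13549 embryo genes.

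The remaining general markers differed less than their spread. Mean levels over 5 controls and 4 fusion livers were 295 ± 48.5 and 260.2 ± 87.8 CPM for Lyz2 and 20.9 ± 5.59 and 17.0 ± 4.14 CPM for Cd68 (all SD). Adgre1 and Mrc1 were slightly higher in fusion livers on average, at 25.03 ± 2.26 against 23.0 ± 5.33 CPM for Adgre1 and at 67.4 ± 7.32 against 62.2 ± 12.6 CPM for Mrc1 (SD, n = 4 fusion and 5 control). The edgeR adjusted p-values of these 4 genes were 0.588, 0.357, 0.722 and 0.713, in the order given.

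Among the Kupffer genes, Cd5l was at 191, 233, 142, 157 and 162 CPM in control 1 to 5 and at 141, 121, 156 and 174 CPM in fusion 6 to 9. Marco was at 195, 249, 159, 174 and 184 CPM in control and at 157, 138, 191 and 168 CPM in fusion livers. In both genes control 2 was the highest library and fusion 7 the lowest, and the groups overlapped. The log2 fold changes were -0.28 ± 0.17 (SE; edgeR adjusted p = 0.312) for Cd5l and -0.25 ± 0.16 (SE; edgeR adjusted p = 0.321) for Marco.

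Vsig4 was at 6.17, 5.25, 8.38, 10.4 and 7.62 CPM in control 1 to 5 and at 10.2, 8.36, 7.15 and 7.12 CPM in fusion 6 to 9, and its log2 fold change of 0.09 ± 0.20 (SE) had an edgeR adjusted p of 0.793. The libraries of high ribosomal share were its lowest, whereas control 2, the lowest for Vsig4, was the highest for Cd5l and Marco. Clec4f, a lectin made by Kupffer cells, was lower in every fusion liver (104 to 117 CPM) than in every control (118 to 160 CPM), and its log2 fold change of -0.31 ± 0.12 (SE) had an edgeR adjusted p of 0.109. It did pass with the library batch as a covariate (-0.31 ± 0.10, SE; edgeR adjusted p = 0.0342) and in DESeq2 (adjusted p = 0.0448). It did not pass with sex as a covariate (edgeR adjusted p = 0.157). Timd4, which encodes a receptor for dying cells, averaged 15.1 ± 1.96 CPM over controls and 15.96 ± 2.65 CPM over fusion livers (both SD; edgeR adjusted p = 0.805).

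**Figure D1:**
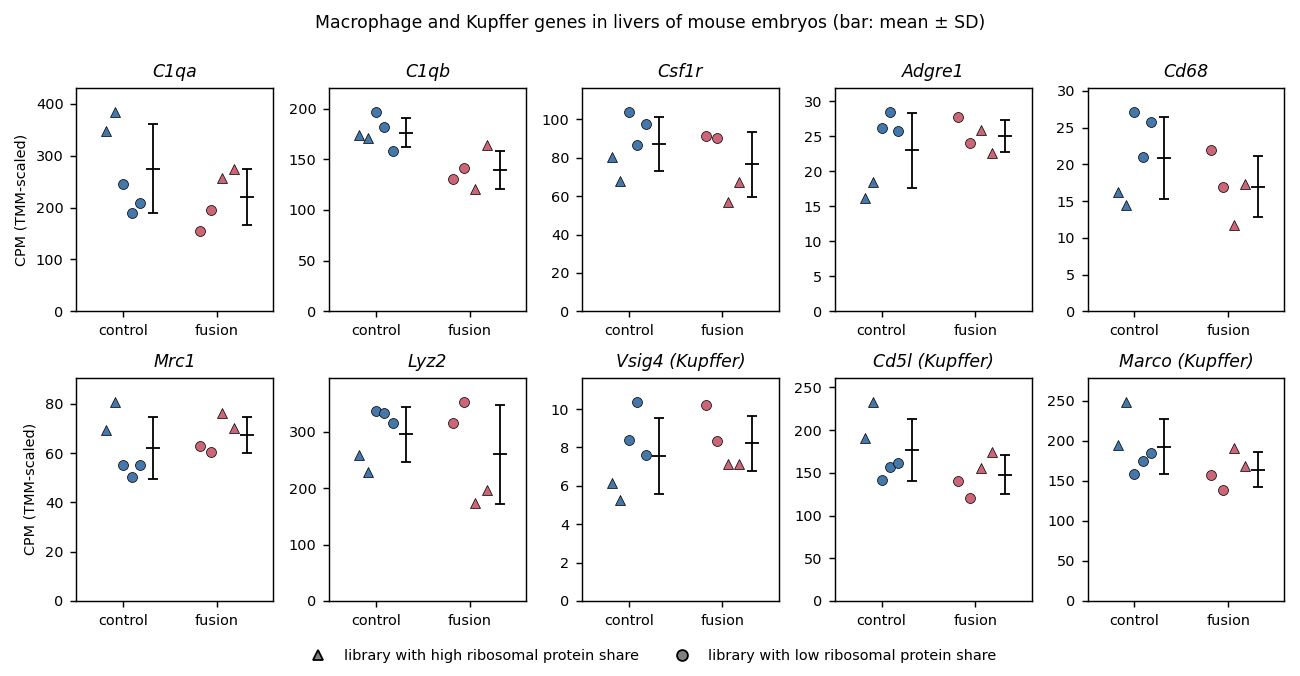
CPM after TMM scaling of the 10 genes in 5 control and 4 fusion livers, 1 point per embryo, with the mean ± SD beside each group; triangles are libraries of high ribosomal protein share (control 1 and 2, fusion 8 and 9) and circles the others. The groups overlap for all 10 genes, and triangles lie apart from circles for C1qa, Csf1r, Mrc1, Lyz2 and Vsig4.

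The library batch separated 5 of the 10 genes without overlap, against 20.3% of all genes. C1qa and Mrc1 were higher in the 4 libraries of high ribosomal share, at 257 to 384 against 156 to 246 CPM for C1qa and at 69.2 to 80.9 against 50.5 to 62.8 CPM for Mrc1. Csf1r, Lyz2 and Vsig4 were lower there, Lyz2 at 174 to 259.7 against 316 to 354 CPM. The ratio of C1qa to C1qb, chains of the same protein, was 1.67 to 2.25 in the high set and 1.05 to 1.39 in the low set. Whether this split came from the tissue or from library preparation was not tested.

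With the library batch as a covariate, 3 members passed the threshold, all lower in fusion livers: C1qa (log2 fold change -0.39 ± 0.11, SE; edgeR adjusted p = 0.0173), C1qb (-0.36 ± 0.11; 0.0237) and Cd5l (-0.31 ± 0.10; 0.0352). In that fit 32.6% of all genes passed, 16.1% higher and 16.5% lower, so that the members' count lay near the background. Marco, at -0.28 ± 0.11 (SE; edgeR adjusted p = 0.0584), did not pass. Within the low set, where 21.8% of genes passed (11.2% as lower), C1qb did so (log2 fold change -0.40, edgeR adjusted p = 0.0448). By Xist, that set held male controls and female fusion embryos, so genotype and sex cannot be told apart. Within the high set, where 20% of genes passed (9.8% as lower), C1qa did so (-0.48, edgeR adjusted p = 0.0368). DESeq2 without the batch called C1qb alone (adjusted p = 0.0263), with 18.4% of all genes called, 9.21% as lower. By Xist, control 1 and 2 and fusion 6 to 8 were female and the others male, so sex was uneven between genotypes in every fit. With sex in place of the batch as a covariate, 0 members passed (C1qb at an edgeR adjusted p of 0.138), and 1284 of 13316 genes did.

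**Figure D2:**
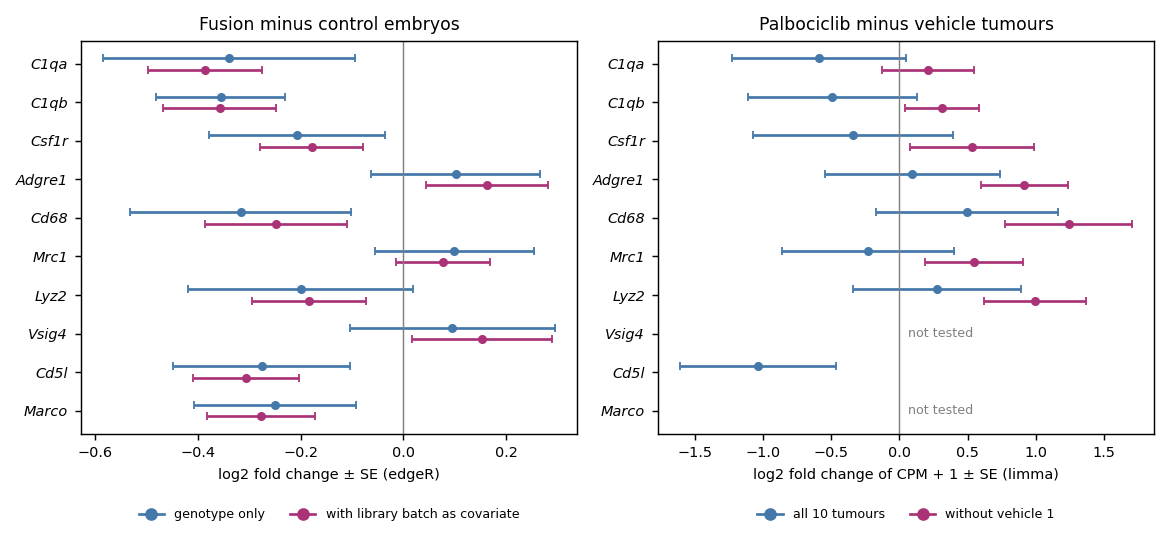
Log2 fold changes ± SE of the 10 genes: on the left fusion minus control livers by edgeR, with genotype alone and with the library batch as a covariate; on the right palbociclib minus vehicle tumours by limma on log2(CPM + 1), with all 10 tumours and without vehicle 1. In embryos the batch covariate narrows the error bars and leaves every estimate on its side of 0; in tumours leaving out vehicle 1 moves C1qa, C1qb, Csf1r and Mrc1 from below to above 0, and Vsig4 and Marco were below the filter.

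The Kupffer genes and the general genes differed little in how they stood between genotypes. The mean log2 fold change of the 3 Kupffer genes minus that of the 7 general genes was 0.03, less than the SD of 0.18 between livers of a group. The summed CPM of the 3 Kupffer genes was 40.1% ± 6.93 (SD, n = 5) of that of the 7 general genes over controls and 40.1% ± 7.92 over fusion livers (SD, n = 4). It did differ by library batch, at 40.7% to 50.5% in the high set and 30.3% to 39.9% in the low set. Cd5l and Marco made up nearly all of the Kupffer sum, and each overlapped between the sets. Vsig4 went the other way, at 5.25 to 7.15 CPM in the high set and 7.62 to 10.4 CPM in the low set. The summed general genes were at 886 to 993 CPM in control and 723 to 883 CPM in fusion livers, and the Kupffer genes at 308 to 487 and 267 to 354 CPM.

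Other macrophage gene lists gave few calls in the embryos with genotype alone and more with the library batch as a covariate, where 32.6% of all genes passed. Of 14 further Kupffer genes 0 passed the threshold in edgeR, and 1, Clec4f, had an unadjusted p under 0.05. With the batch covariate 3 passed, all lower (Fcna, C6 and Clec4f). Of 10 genes of island macrophages, some of them shared with the Kupffer list, 0 passed. Maea, which encodes a protein that attaches erythroblasts to macrophages, came nearest, averaging 57.6 ± 7.62 CPM over controls and 76.7 ± 7.94 CPM over fusion livers (both SD; edgeR adjusted p = 0.0585), and it passed with the batch covariate (edgeR adjusted p = 0.00156). Of 24 other pan-macrophage genes 0 passed and 8 had an unadjusted p under 0.05. With the batch covariate 3 passed as higher and 8 as lower. Their median log2 fold change was -0.08, against -0.01 over all genes. Stab1, a scavenger receptor that liver sinusoidal endothelium also expresses, had the smallest p among them, at 120 to 180 CPM in control and 102.5 to 109 CPM in fusion livers (log2 fold change -0.51 ± 0.15, SE; edgeR adjusted p = 0.0503, and 0.00383 with the batch covariate).

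With genotype alone, the genes of further lists that passed are not specific to macrophages. In the list around the CSF1 receptor, which includes Csf1r, 1 of 7 tested genes passed: Cebpa, which encodes a transcription factor of both myeloid cells and hepatocytes, fell by 0.65 ± 0.17 on the log2 scale (SE; edgeR adjusted p = 0.0303). Of 10 monocyte genes Plac8 rose by 0.76 ± 0.20 (SE; edgeR adjusted p = 0.0278). Of 16 tested genes of tumour macrophages Cd9, a tetraspanin of many cell types, rose by 1.09 ± 0.29 (SE; edgeR adjusted p = 0.0303). Of 14 lysosomal genes Ctsl, which encodes a cathepsin, rose by 0.61 ± 0.15 (SE; edgeR adjusted p = 0.0206).

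Lists of other cell types were read in the same livers. With genotype alone 12.8% of all genes passed in edgeR. Of 12 neutrophil, 7 erythroid, 10 endothelial and 6 MHC class II genes 0 passed. At an unadjusted p under 0.05 were 4, 0, 2 and 0 of them, against 29.3% of all genes. With the batch covariate, where 16.1% of all genes passed as higher and 16.5% as lower, 6 neutrophil genes passed, all lower. So did 5 endothelial genes, 3 higher (Kdr, Cdh5 and Lyve1) and 2 lower (Egfl7 and Tie1), while 0 erythroid and 0 MHC class II genes did. Of 9 fibroblast genes 3 passed as lower with genotype alone (Thy1, Col1a1 and Col1a2), beside 6.81% of all genes. With the batch covariate Pdgfrb passed as lower too. The summed fibroblast list was at 249 to 455 CPM in control and 220 to 337 CPM in fusion livers. The summed neutrophil list was at 5829 to 8220 CPM in control and 4601 to 7010 CPM in fusion livers. The part of these cells in the member values was not tested.

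In the tumours the general macrophage genes were present and the Kupffer genes were close to the limit of detection. The embryo and tumour tables were normalized separately, so levels across them are set side by side without a test. In the 9 tumours other than vehicle 1, C1qa was at 12.8 to 44.7 CPM, C1qb at 18.1 to 46.4 CPM and Lyz2 at 43.2 to 251 CPM. Csf1r was at 1.35 to 14.5 CPM, Adgre1 at 2.71 to 11.1 CPM, Cd68 at 2.03 to 34.5 CPM and Mrc1 at 4.18 to 18.6 CPM. By contrast, Cd5l was at 0 to 1.95 CPM, Vsig4 at 0 to 1.21 CPM and Marco at 0 to 1.25 CPM in the same 9 tumours.

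Cd5l and Marco, which were among the higher members in the fetal liver, were thus at the bottom of the order in the tumours. The summed Kupffer genes were 30.3% to 50.5% of the summed general genes in the 9 livers and 0% to 1.13% in the 10 tumours. In reads, they amounted to 0 to 87 per tumour outside vehicle 1, so single values rest on few reads. Vehicle 5 had 0 reads of the 3 Kupffer genes beside 450 reads of the general genes, which allows a ratio of up to 0.667%. Palbociclib 3 had 0 beside 6989 reads, which allows up to 0.0429%. These limits cover counting error only.

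Other genes of the Kupffer list differed in level. Folr2, which encodes a folate receptor of resident macrophages, was at 0 to 3.87 CPM in vehicle 2 to 5, at 3.37 to 11.0 CPM in palbociclib tumours and at 41.4 CPM in vehicle 1. Its log2 fold change was 0.86 with vehicle 1 and 1.70 without it (unadjusted p = 0.00220 in limma without vehicle 1, adjusted p = 0.968). Clec1b, which encodes a C-type lectin, was at 0 to 5.57 CPM in vehicle 2 to 5 and 0 to 0.415 CPM in palbociclib tumours. It was at 2.45 CPM in vehicle 1. Its log2 fold change was -1.23 with vehicle 1 (limma unadjusted p = 0.0180, adjusted p = 0.953). Without vehicle 1 it was -1.13 (limma unadjusted p = 0.0375, adjusted p = 0.977). Of 11 tested genes of this list, 5 were higher and 6 lower after palbociclib without vehicle 1, beside 54.3% of all genes higher. Timd4 was at 0 to 0.712 CPM in the 9 tumours and at 3.19 CPM in vehicle 1, and Clec4f was not among the 17606 tumour gene IDs. A sum of 13 Kupffer list genes was at 424 to 544 CPM in the 9 tumours. That list also holds genes with wider expression, such as Hmox1, which encodes a haem-degrading enzyme, and Slc40a1, which encodes an iron exporter.

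**Figure D3:**
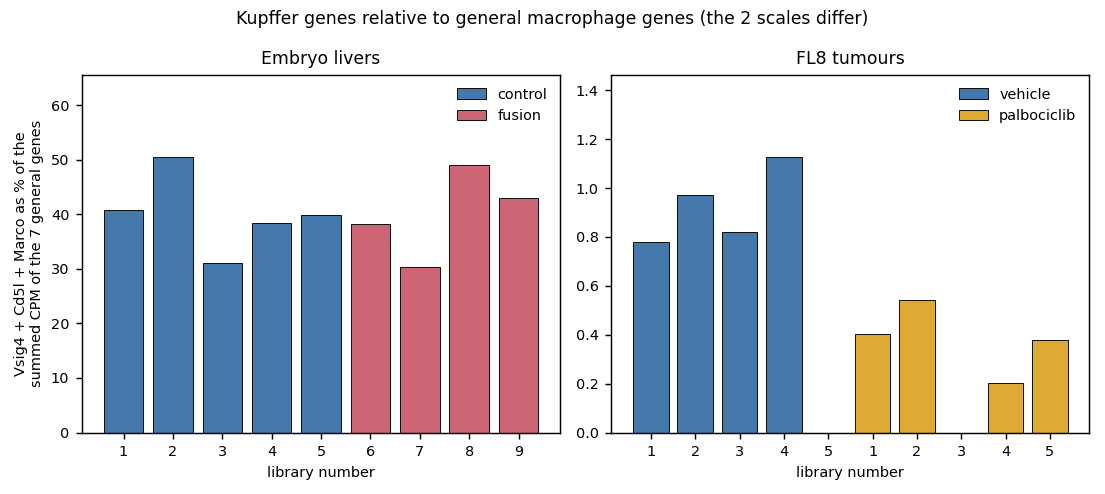
Summed CPM of Vsig4, Cd5l and Marco as a percentage of the summed CPM of the 7 general macrophage genes, 1 bar per library, for 9 embryo livers (left) and 10 tumours (right, on its own scale). Livers lie between 30.3% and 50.5%, tumours at or below 1.13%, and vehicle 5 and palbociclib 3 are at 0.

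Vehicle 1 stood above the other 9 tumours for every member. It had 433 CPM of C1qa, 425 CPM of C1qb, 135 CPM of Csf1r, 77.4 CPM of Adgre1, 121 CPM of Cd68, 119 CPM of Mrc1 and 891 CPM of Lyz2. These were 7.37 to 16.9 times the median of the other 9. All 7 general members were highest in vehicle 1, against 8.68% of all tumour genes, and 3.89% of genes were at least 5-fold above the median of the others.

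The Kupffer genes were also highest there, at 13.3 CPM of Cd5l, 2.42 CPM of Vsig4 and 1.36 CPM of Marco, although palbociclib 2 with 1.25 CPM of Marco came close. Their sum was 0.778% of that of the general genes, within the range of the other tumours. With mitochondrial genes left out of the totals, the distance grew: C1qa was at 811 CPM in vehicle 1 and at most 47.1 CPM in the others.

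Other gene lists, immune and not, were read in the same tumour. The 7 MHC class II genes, which present antigen, summed to 1018 CPM in vehicle 1 and to 44.9 to 89.3 CPM in the other 9, and each was highest in vehicle 1. Dendritic cell genes summed to 39.9 against 4.82 to 7.78 CPM (7 of 8 highest in vehicle 1). The lymphocyte list summed to 68.2 against 2.71 to 8.99 CPM, but 58.5 CPM of this was Ptprc, a gene of all leukocytes including macrophages, and 8.89 CPM was Cd4. The other 3 measured genes of that list were not highest in vehicle 1. Of the 24 pan-macrophage genes 22 were highest in vehicle 1. Endothelial genes summed to 278 against 85.1 to 194 CPM (9 of 9 highest in vehicle 1). Fibroblast genes summed to 254 against 46.7 to 209 CPM (3 of 9 highest). Neutrophil genes summed to 202 against 22.4 to 167 CPM (8 of 11 highest). The rise was thus not confined to macrophage or other immune lists. The summed hepatocyte list was at 40153 CPM there, against 83716 to 126817 CPM in the other 9. The part of the mitochondrial share or of these other cells in the member values was not tested.

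**Figure D4:**
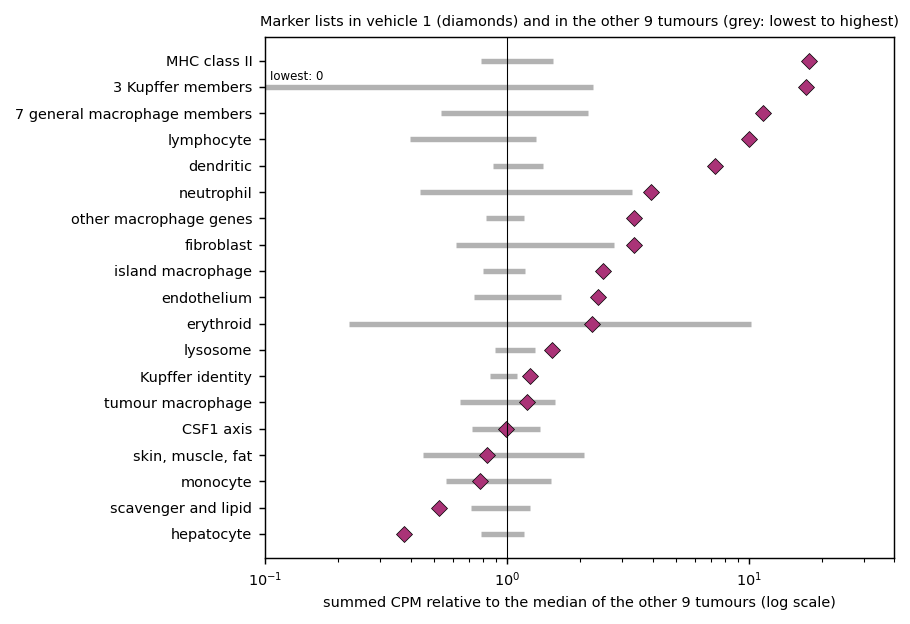
Summed CPM of marker lists in vehicle 1 (diamonds), divided by the median of the other 9 tumours, on a log axis; grey bars span the lowest to the highest of the other 9, which reach 0 for the 3 Kupffer members. Vehicle 1 lies far above the other tumours for MHC class II genes and for both sets of members, and below them for the hepatocyte list.

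The second comparison asks how the members stand after palbociclib. With all 10 tumours 0 members and 0% of 12829 genes passed the threshold (limma, smallest adjusted p 0.953), 586 genes (4.57%) had an unadjusted p under 0.05 and no member did. Of the 10 members 8 passed the filter at a mean of 1 CPM, since Vsig4 and Marco fell below it, and Cd5l passed only through vehicle 1. As means of log2(CPM + 1), C1qa, C1qb, Csf1r, Mrc1 and Cd5l were lower after palbociclib and Adgre1, Cd68 and Lyz2 higher. In mean CPM the latter were lower too, at 7.98 against 18.4 for Adgre1, 22.8 against 32.2 for Cd68 and 161 against 242 for Lyz2, with vehicle 1 in the vehicle mean. On the log2 scale 68.8% of all genes were higher with a median of 0.14. With TMM factors the share was 51.2%, the median 0.01, and Adgre1 turned lower, at -0.05. No member was free of overlap between treatments, against 0.935% of all genes.

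The values of C1qa, C1qb, Csf1r and Mrc1 changed sign when vehicle 1 was left out. Then all 7 general members were higher after palbociclib as means of log2(CPM + 1), with a median log2 fold change of 0.55, beside 54.3% of all genes higher and a median of 0.03. Again 0 members and 0% of 12739 genes passed (limma, smallest adjusted p 0.968). At an unadjusted p under 0.05 were 3 of the 7, Cd68, Lyz2 and Adgre1, against 5.09% of all genes. The 7 genes were read in the same tumours and are not independent of each other, so these counts are a description only. No member was free of overlap, against 1.57% of all genes.

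Cd68 was at 10.4, 16.4, 11.3 and 2.03 CPM in vehicle 2 to 5 and at 9.73, 34.5, 16.5, 24.7 and 28.7 CPM in palbociclib 1 to 5. All palbociclib tumours but the first were above the highest of these 4 vehicle tumours. In vehicle 5, Cd68 had 6 reads. The log2 fold change was 1.24 ± 0.46 (SE; limma adjusted p = 0.968) without vehicle 1 and 0.50 ± 0.67 (SE; limma adjusted p = 0.958) with it.

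Lyz2 was at 43.2, 140, 63.9 and 70.7 CPM in vehicle 2 to 5 and at 67.1, 251, 104, 181 and 204 CPM in palbociclib 1 to 5, with palbociclib 2, 4 and 5 above all 4 vehicle tumours. Its log2 fold change was 1.00 ± 0.37 (SE; limma adjusted p = 0.968) without vehicle 1 and 0.27 ± 0.61 (SE; limma adjusted p = 0.967) with it.

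Adgre1 was at 3.70, 4.57, 3.39 and 2.71 CPM in vehicle 2 to 5 and at 4.39, 9.52, 9.40, 11.1 and 5.51 CPM in palbociclib 1 to 5, so that only palbociclib 1 lay among these vehicle tumours. In vehicle 5, Adgre1 had 8 reads. Its log2 fold change was 0.92 ± 0.32 (SE; limma adjusted p = 0.968) without vehicle 1 and 0.09 ± 0.64 (SE; limma adjusted p = 0.987) with it.

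**Figure D5:**
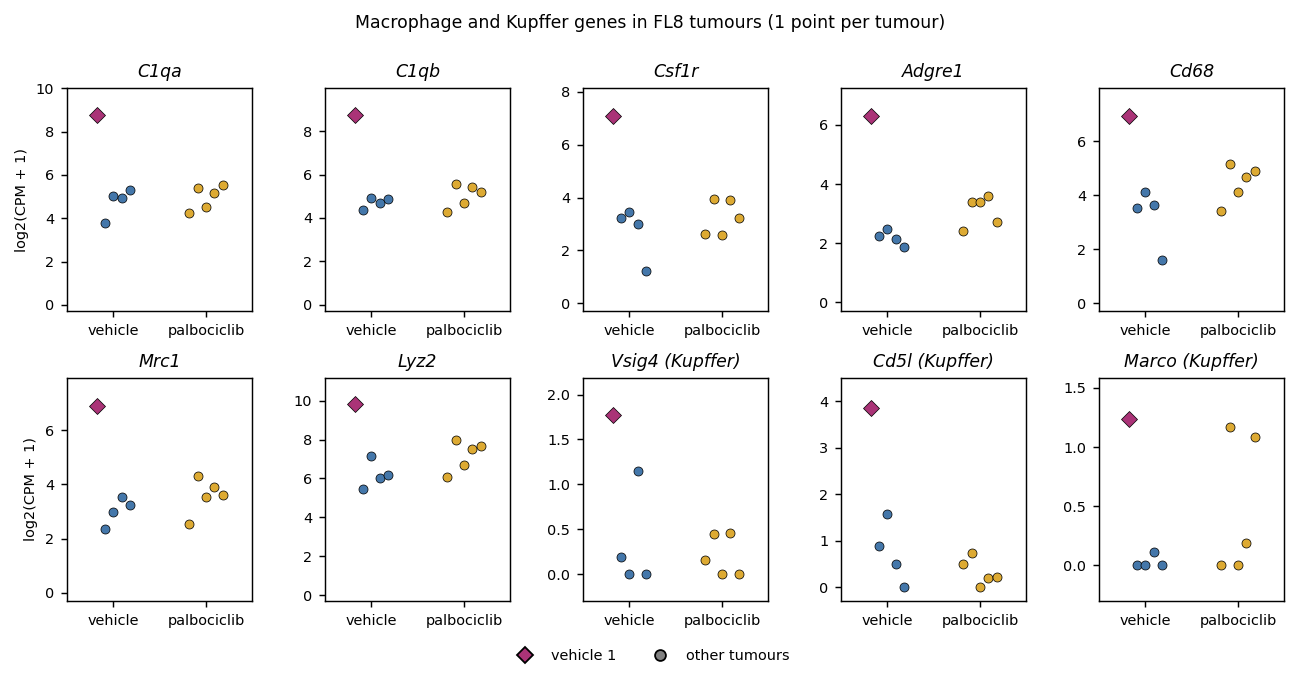
Log2(CPM + 1) of the 10 genes in 5 vehicle and 5 palbociclib tumours, 1 point per tumour, with vehicle 1 as a diamond; the vertical scales differ. Vehicle 1 is the highest tumour for all 10 genes, and the other tumours of the 2 treatments overlap for each of them.

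C1qa, C1qb, Csf1r and Mrc1 differed less. C1qa was at 12.8, 31.2, 29.5 and 38.9 CPM in vehicle 2 to 5 and at 18.1, 41.7, 21.6, 35.2 and 44.7 CPM in palbociclib 1 to 5. The log2 fold changes of C1qa, C1qb, Csf1r and Mrc1 were 0.21 ± 0.33, 0.31 ± 0.27, 0.53 ± 0.45 and 0.55 ± 0.36 (SE) without vehicle 1 (limma adjusted p = 0.994 for each), and -0.59 ± 0.64, -0.49 ± 0.62, -0.34 ± 0.73 and -0.23 ± 0.63 (SE) with it. Csf1r was at 1.35 CPM, or 4 reads, in vehicle 5.

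The Kupffer genes were too low for a direction of their own, and they did not stand the same way. Cd5l was at 0.854, 1.95, 0.404 and 0 CPM in vehicle 2 to 5 and at 0.399, 0.649, 0, 0.139 and 0.161 CPM in palbociclib 1 to 5. With vehicle 1, at 13.3 CPM, its log2 fold change was -1.03 ± 0.57 (SE; limma adjusted p = 0.953). Without vehicle 1 it was below the filter. Marco, never tested, was at 0 to 0.0808 CPM in vehicle 2 to 5 and at 1.25 and 1.13 CPM in palbociclib 2 and 5, with 0 to 0.139 CPM in the other 3 palbociclib tumours. Summed Kupffer genes were 0.778% to 1.13% of the summed general genes in vehicle 1 to 4 and 0% to 0.543% in the 5 palbociclib tumours. Vehicle 5, at 0% with a limit of 0.667%, lay below the other vehicle tumours and within the palbociclib range. The mean Kupffer change minus the mean general change was -0.30 with vehicle 1 and -0.70 without it, on the log2(CPM + 1) scale. Outside vehicle 1 the Kupffer genes were mostly under 1 CPM, where this scale hardly moves, so this difference mainly carries the general genes' values.

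The count tests on recovered reads gave another picture of vehicle 1. In edgeR all 8 tested members were lower after palbociclib with it, with 0 genes of 14367 called. C1qa, C1qb, Cd5l and Csf1r had an unadjusted p under 0.05 there, against 5.38% of all genes. Without vehicle 1 the same tool had all 7 general members higher and Cd5l lower. DESeq2 called 5 genes, 0.039% of the 12829 genes in the fit. It gave no adjusted p to any of the 8 members, so it could not call one.

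Further genes of the macrophage programme stood in both directions. Spi1, which encodes PU.1, was at 2.37 to 6.03 CPM in vehicle 2 to 5 and at 3.57 to 16.9 CPM in palbociclib tumours, with a log2 fold change of 0.29 with vehicle 1 and 1.05 without it (limma adjusted p = 0.968). C1qc was at 10.1 to 24.0 CPM in vehicle 2 to 5 and 18.6 to 30.7 CPM in palbociclib tumours. Its log2 fold change was -0.23 with vehicle 1. Without vehicle 1 it was 0.59 ± 0.26 (SE), with a limma unadjusted p of 0.0408 and an adjusted p of 0.982. Cd14, a co-receptor for bacterial lipopolysaccharide and the gene with the smallest p on the pan-macrophage list, was at 74.1 to 107 CPM in vehicle 2 to 5 and 41.7 to 92.3 CPM in palbociclib tumours. Its log2 fold change was -0.68 with vehicle 1 and -0.62 without it (limma adjusted p = 0.953 and 0.968). Of 24 pan-macrophage genes 8 were higher after palbociclib with vehicle 1, beside 68.8% of all genes. Without it 17 were higher, beside 54.3% of all genes. Of the ligand genes, Csf1 averaged 9.46 ± 4.95 CPM over 5 vehicle and 9.68 ± 2.61 CPM over 5 palbociclib tumours (both SD). Its log2 fold change was 0.19 with vehicle 1 and 0.17 without it (limma adjusted p = 0.966 and 0.994). Il34, below the filter, was at 0 to 0.709 CPM in vehicle tumours. It was at 1.01, 1.18 and 1.09 CPM in palbociclib 2 to 4 and at 0.114 and 0 CPM in palbociclib 1 and 5.

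For lists of other cells without vehicle 1, 0 genes were called by limma. Of all genes 54.3% were higher in that fit, with a median log2 fold change of 0.03. All 8 tested fibroblast genes were higher after palbociclib (median log2 fold change 0.67), and the list summed to 46.7 to 130 CPM in vehicle 2 to 5 and to 58.2 to 209 CPM in palbociclib tumours, which overlap. All 7 tested erythroid genes were lower (median -1.52). The 9 measured genes of that list summed to 1075 to 49130 CPM in vehicle 2 to 5. In palbociclib tumours they summed to 1109 to 5545 CPM, within the vehicle range. Of 5 neutrophil genes 2 were higher, and S100a8, which encodes a calcium-binding protein of neutrophils and monocytes, had a log2 fold change of -1.14. Their part in the member values was not tested.

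The genes most like the members were taken by the root-mean-square difference between centred log2 profiles, as a description. Over the 10 tumours the nearest to the mean of the 7 general members were Spi1 (0.27), C1qc (0.29), Dab2 (0.31), Lcp2 (0.32) and Fcgr3 (0.33), in log2 units, where the mean profile itself had an SD of 1.26. The members themselves lay 0.27 (C1qb) to 0.57 (Cd68) from it. Without vehicle 1, over 9 tumours, other genes were nearest: Gm13394, C5ar1, Cd300lb, Npl and Ptpn7, at 0.22 to 0.25.

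In the 9 livers the mean profile of the general members was nearly flat (SD 0.12 log2 units), and members lay 0.15 (C1qb) to 0.43 (C1qa) from it. The nearest other genes were Chmp7, Rinl, Rnf126, Ppp1r12c and Stau1, at 0.04 to 0.06, none of them on the macrophage lists. The nearest to the 3 Kupffer members in livers were Arnt, Terf1, Zfp949, Apeh and Rtn4, at 0.06 to 0.07. In the tumours they were Tgfb1, Samsn1, Cyth4, Hal and Cfp, at 0.16 to 0.28, and this profile rested on vehicle 1.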

How the data were processed

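RNA sequencing of 9 embryo livers (poly-A RNA) and 10 tumours (total RNA, per the labels) was used. Per the file headers, the deposited embryo values are raw counts, 1 row per gene symbol, and the tumour tables hold CPM deposited by the authors, for Ensembl IDs. Per the submitters' processing notes, embryo reads were processed with STAR 2.5.1b and DESeq2 and tumour reads with cutadapt 2.10, HISAT2, featureCounts, DESeq2 and R 4.1.2, on mm10. The lowest count sum of an embryo gene over the 9 libraries was 47, and no gene with a lower sum was present. The 9 columns of scaled values in the embryo table were not used. All tumour values (100%) were whole multiples, within 0.01, of the value of 1 read, which gave whole reads for the count tests. GENCODE M21 gave a symbol to 17469 of 17606 tumour IDs, exon lengths and the overlap of genes.

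Under R 4.3.3, embryo counts were tested with edgeR 4.0.16 (quasi-likelihood test, TMM, filterByExpr). Tumours were tested with limma 3.58.1 with a mean-variance trend, on log2(CPM + 1), where the mean over the libraries reached 1 CPM. This scale understates changes of low genes. P-values were adjusted over all genes tested by the Benjamini-Hochberg method, with a threshold of 0.05. Embryo levels are CPM after TMM scaling and tumour levels CPM as deposited. DESeq2 was version 1.42.0. Ribosomal protein genes (78) gave the library batch, split at the largest gap.

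The members and all gene lists were chosen with earlier results of these data known. All 10 members are named. Of each list up to 3 genes past the threshold in each direction are eligible, or the 2 with the smallest p where none passed. C1qc, Clec4f, Timd4, Csf1 and Il34 are always given, and the 5 genes most like the members, except those nearest to the Kupffer genes without vehicle 1, which are not reported here. Hmox1, Slc40a1 and genes called only with the batch covariate were named in addition, after their values were seen. A count of 3 is the floor, 0.0658 to 0.392 CPM in embryo and 0.0695 to 1.01 CPM in tumour libraries, for counting error only. Alternatives were other size factors and filters, a pseudocount of 0.1, DESeq2, limma-voom, covariates, the replicate block and each library left out.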

Additional observations from a re-analysis of the deposited data

Results flagged for a closer look

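Each gene was screened in each of the 4 groups for a single library far from the rest of its group. This was met 9 times in 40 screens (about 2 would come by chance), each time by vehicle 1. The figure for chance does not allow for a single library that stands apart in many genes. Vehicle 1 was the highest tumour for 8.68% of all genes, and the share of all genes that meet the criterion is not given here. The genes are not independent of each other, since they were read in the same tumours.

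Among the general markers, vehicle 1 had 433 CPM of C1qa, against 12.8 to 38.9 CPM in the other 4 vehicle tumours. It had 425 CPM of C1qb against 19.8 to 29.6 CPM, 135 CPM of Csf1r against 1.35 to 9.93 CPM, and 77.4 CPM of Adgre1 against 2.71 to 4.57 CPM. Cd68 was at 121 CPM against 2.03 to 16.4 CPM, Mrc1 at 119 CPM against 4.18 to 10.7 CPM, and Lyz2 at 891 CPM against 43.2 to 140 CPM.

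Among the Kupffer markers, Cd5l was at 13.3 CPM in vehicle 1 against 0 to 1.95 CPM, and Marco at 1.36 CPM against 0 to 0.0808 CPM. Vsig4, at 2.42 CPM in vehicle 1 and 1.21 CPM in vehicle 4, did not meet the criterion. No library of the embryo groups or of the palbociclib group did.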

How the results depend on the processing

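In the embryos the edgeR count of 1703 called genes was 4346 with the library batch as a covariate and 1284 with sex as a covariate. It was 2950 within the low set and 2589 within the high set, and 969 to 1581 with 1 embryo left out (969 without control 3, 1107 without fusion 7, 987 without fusion 8). Members called were 0 in the main fit, 1 in DESeq2, 3 with the batch covariate, 0 with the sex covariate, 1 within each set, and 0 with each embryo left out. Directions reversed for Adgre1 (-0.051) and Lyz2 (0.013) within the low set, Mrc1 (-0.052) within the high set and Vsig4 (-0.033) without fusion 6, all log2 fold changes far from the threshold. With each embryo left out, Vsig4 ranged from -0.033 to 0.23. The Kupffer minus general change kept within -0.04 to 0.10.

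In the tumours no setting that gave the members an adjusted p called one. DESeq2, which gave them none, called 5 genes where the other settings called 0. Leaving out 1 tumour gave log2 fold changes of -1.03 to 0.21 for C1qa, -0.78 to 0.31 for C1qb, -0.93 to 0.53 for Csf1r, -0.18 to 0.92 for Adgre1, -0.093 to 1.24 for Cd68, -0.59 to 0.55 for Mrc1 and -0.088 to 1.00 for Lyz2. C1qa, C1qb and Csf1r turned positive only where vehicle 1 was left out, Adgre1 turned negative without vehicle 2, 3, 4 or 5 or palbociclib 4, Cd68 without vehicle 5, Lyz2 without vehicle 2, and Mrc1 positive without vehicle 1 or palbociclib 1. Adgre1 was at -0.054 with TMM factors, at -0.052 with mitochondrial genes left out, and at -1.85 in edgeR and -1.87 in DESeq2. Cd68 was at -1.08 and -1.10 and Lyz2 at -1.15 and -1.18 in edgeR and DESeq2, and Mrc1 at 0.38 in limma-voom with quality weights. The causes were not tested. With TMM factors 51.2% of all genes were higher, with a median of 0.01.

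Chosen after seeing the data, vehicle 1 was also left out together with TMM factors, with the mitochondrial genes and in edgeR. These gave 0.21, 0.24 and 0.20 for C1qa, 0.32, 0.34 and 0.40 for C1qb, 0.54, 0.56 and 0.48 for Csf1r, and 0.55, 0.57 and 0.69 for Mrc1.

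The tumour replicate numbers were checked for pairing: same-numbered tumours deviated with correlations of -0.32 to 0.002, and none correlated best with its own number. With the number as a replicate block, 0 genes and 0 members were called. The embryos carry no shared numbers. The Kupffer minus general change of the tumours ranged from -0.73 to -0.13 over its alternatives. It was taken from the log2 values of all 10 genes and was not run for edgeR, DESeq2, limma-voom, the filter of 10 CPM, or TMM factors with vehicle 1 left out. The depth of vehicle 5, where a count of 3 is 1.01 CPM, limits its Kupffer values.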
